A study of Mus musculus with 10 samples.

Results

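Fatty acid oxidation genes and targets of the nuclear receptor PPARA were followed in the ileum after vertical sleeve gastrectomy (VSG), bariatric surgery in which the larger part of the stomach is cut away to leave a narrow tube. The members are 34 genes chosen by name: the enzymes and carriers of mitochondrial and peroxisomal fatty acid oxidation, Ppara itself, and genes that PPARA is known to switch on. All 34 were found, each under 1 gene identifier, among the 36401 genes of the deposited estimated counts. Acot1 and Acot2, which are near copies, were summed and read as 1, which leaves 33 units: 17 mitochondrial, 7 peroxisomal and 9 of other compartments or regulators. Terminal ileum was sequenced in 5 libraries from VSG mice, fed ad libitum after surgery. Another 5 libraries came from sham-operated pair-fed mice (SPF), given food to match the VSG animals. All were male C57Bl6 mice made obese on a diet with 60 kcal % fat for 6 weeks before surgery at 8 weeks of age, and both groups had a liquid Osmolite diet around the operation. Tissue was taken roughly 8 weeks later, 1 hour after 0.5 mL Osmolite was gavaged to mice that had gone without food overnight. The diet, the fast and the gavage were thus common to both groups. Every n counts libraries, and the labels do not say outright that each is a separate animal.

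Fatty acids enter mitochondria as carnitine esters, made by CPT1 and turned back into CoA esters by CPT2, and are then shortened by a repeated cycle of dehydrogenation, hydration, a further dehydrogenation and thiolysis. Peroxisomes shorten very long, branched and dicarboxylic acids by a parallel set of enzymes and hand the products on to mitochondria. PPARA is a nuclear receptor activated by fatty acids. It pairs with RXR on direct repeats of a hexamer, is best known for inducing both pathways in the fasting liver, and is also expressed in the absorptive cells of the small intestine, where dietary fat is a source of its ligands.

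The libraries held 15364651 to 34058181 estimated reads. In 3 of them, VSG 2, SPF 2 and SPF 4, the markers went against the label terminal ileum. Gata4, which encodes a duodenal and jejunal regulator, stood at 121 CPM in VSG 2, 109 CPM in SPF 2 and 183 CPM in SPF 4, and at 1.72 to 6.28 CPM in the other 7 libraries (CPM here is the read abundance after TMM normalisation for library size). The summed level of 8 upper small intestine markers was 2803 to 3235 CPM in those 3 libraries and 65.8 to 149.7 CPM in the other 7. The sum of 6 ileum markers was 402 to 587 CPM in the 3 and 4324 to 9321 CPM in the 7. Within the 7, the upper small intestine markers summed to 107.9 to 149.7 CPM in VSG and 65.8 to 101.6 CPM in SPF libraries, without overlap. Of the 7 of these markers tested there, 3 were higher in VSG libraries. Gata4 averaged 4.66 CPM in VSG and 2.58 CPM in SPF libraries. The ileum markers summed to 5962 to 7608 CPM in VSG and 4324 to 9321 CPM in SPF libraries. The part of this in the results was not tested. Every comparison is therefore given over all 10 libraries and over the 7 with Gata4 below 20 CPM, which are VSG 1, 3, 4 and 5 and SPF 1, 3 and 5. In these bulk samples, fewer cells of a type and less RNA per cell cannot be told apart.

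Over all 10 libraries the members did not separate the surgeries. In edgeR's quasi-likelihood test, 32 of the 33 units passed the filter on low counts, and 17 of them had a log2 fold change (VSG over SPF) above 0 and 15 below it, with a median of 0.01. Across all 15677 genes tested, 41.9% had a fold change above 0 and the median was -0.05. No member was called at an adjusted p of 0.05, and the lowest adjusted p of edgeR among the members was 0.977. The background was 0.0% of genes called, and 595 genes (3.8%) had an unadjusted p under 0.05, 1.88% higher and 1.91% lower in VSG mice, of which 0 were members. DESeq2 called 11 genes (0.0702%), again with 0 members among them.

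In the 7 libraries with low Gata4 the members lay mostly on the VSG side. Of the 32 units tested, 30 had a log2 fold change above 0 and 2 below it, with a median of 0.31. Among all 15885 genes tested, 43.2% had a fold change above 0 and the median was -0.05. With edgeR, 10 members had an unadjusted p under 0.05, all higher in VSG mice, against 3.68% of all genes higher and 3.27% lower. In 9 members every VSG library was above every SPF library, against 4.33% of all genes. No member was called after adjustment over all genes, the lowest adjusted p being 0.633, and 0 of all genes (0.0%) were called by edgeR, while 1105 (6.96%) had an unadjusted p under 0.05. DESeq2 called 83 genes in these libraries (0.523%) and limma-voom 2, none of them members. The count of 10 members at p under 0.05 was 5 without VSG 3, 6 without SPF 1, 6 without SPF 5 and 19 without SPF 3.

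**Figure D1:**
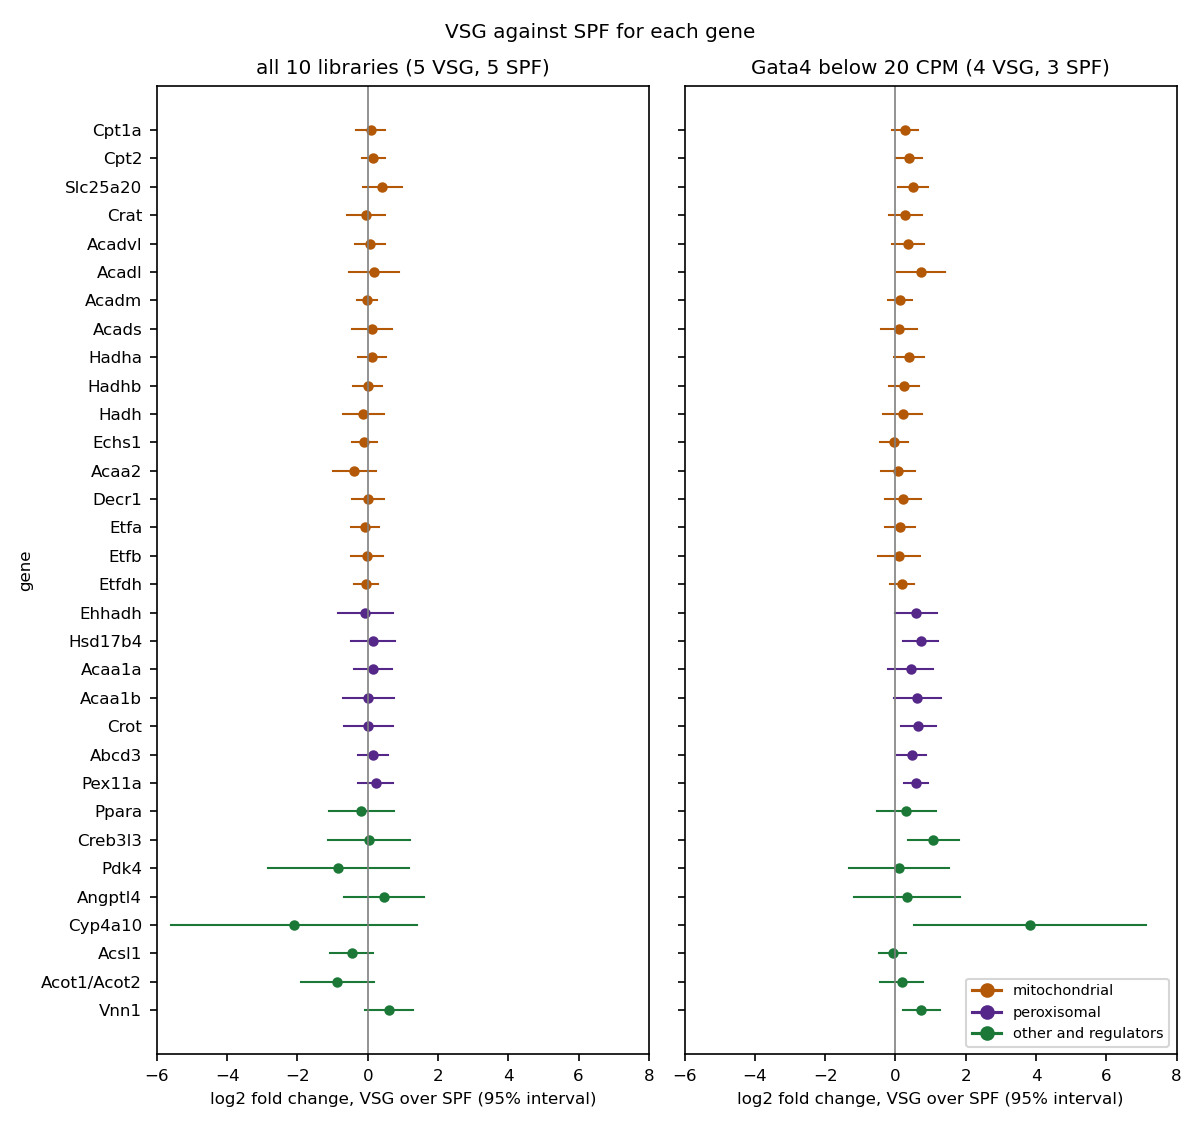
Log2 fold change, VSG over SPF, of each member tested (horizontal axis, with 95% interval) in all 10 libraries on one panel and in the 7 libraries with Gata4 below 20 CPM on the other, coloured by compartment. In the 10 libraries the points scatter around 0 with a median of 0.01, and in the 7 libraries 30 of 32 lie above 0.

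Markers of absorptive cells lay on the same side as the members in the 7 libraries. All 10 enterocyte markers had a fold change above 0, and their summed level ran from 30453 to 51973 CPM in the 4 VSG libraries and from 18705 to 34029 CPM in the 3 SPF libraries. Over all 10 libraries 7 of the 10 markers were above 0, with sums of 30453 to 56813 CPM in VSG and 18705 to 78606 CPM in SPF mice. With the mean log2 CPM of these markers as a covariate, a fit of the 7 libraries chosen after seeing the data, 18 of the 32 members had a fold change above 0, 0 had an unadjusted p under 0.05, and the median was -0.08 for mitochondrial and 0.10 for peroxisomal members. The 10 smooth muscle markers had 0 of 10 above 0, with sums of 969 to 1744 CPM in VSG and 442 to 4105 CPM in SPF mice, and for T cells 0 of 10 were above 0, with 15.7 to 42.0 CPM in VSG and 29.3 to 73.5 CPM in SPF mice. For B cells 0 of 10 were above 0, with 18.9 to 217 CPM in VSG and 87.1 to 277 CPM in SPF mice. For adipocytes, which also use this pathway, 3 of 8 were above 0, with 186 to 237 CPM in VSG and 117 to 212 CPM in SPF mice. For Paneth cells 0 of 5 were above 0, with 1330 to 6207 CPM in VSG and 7239 to 9657 CPM in SPF mice. For goblet cells 2 of 7, for stem cells 1 of 5 and for red blood cells 0 of 5 markers were above 0. No other cell type was used as a covariate, and the part of these cell types in the result was not tested.

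**Figure D2:**
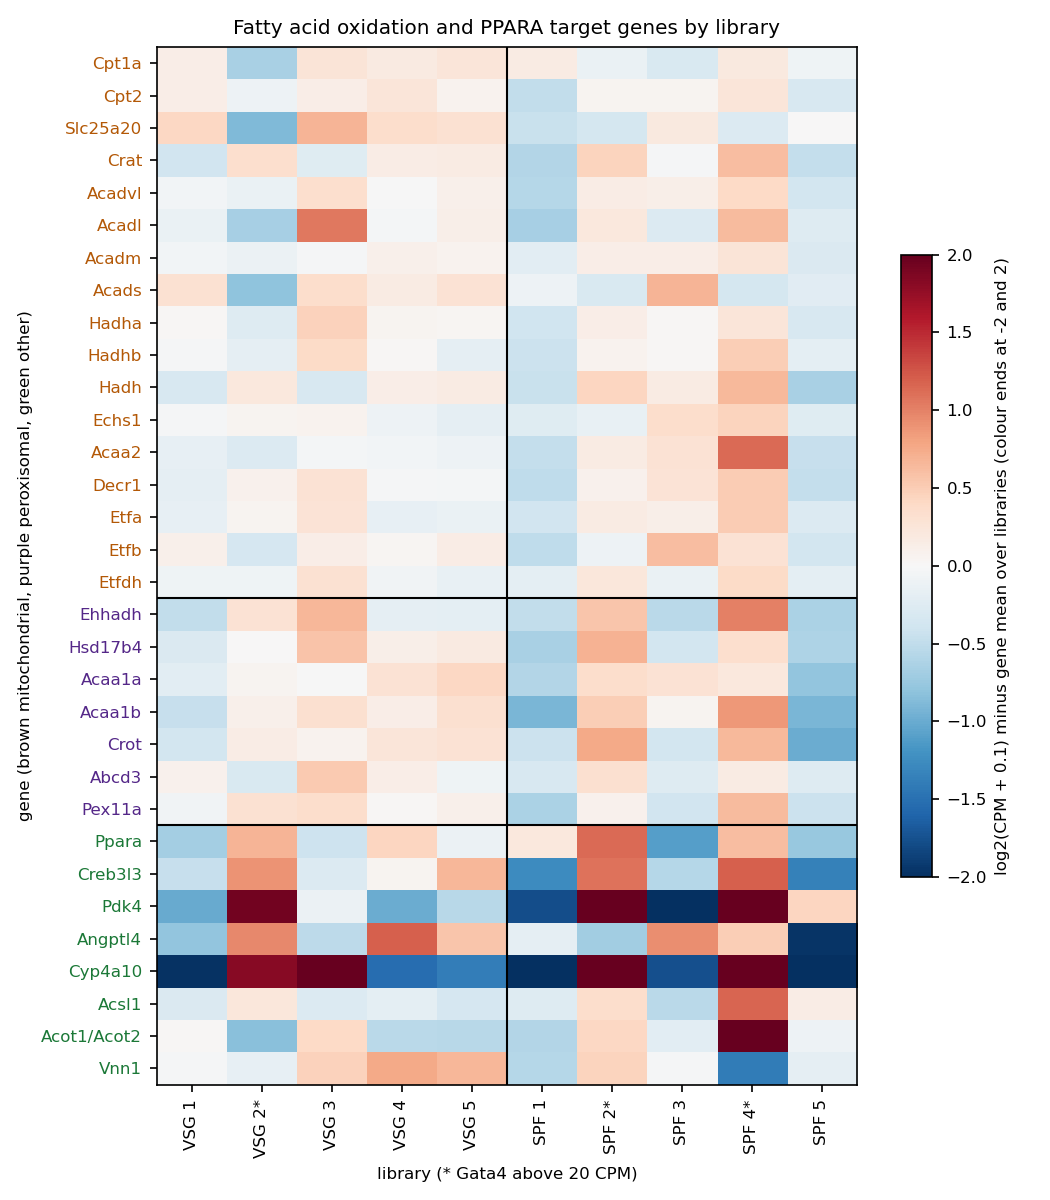
Heat map of the members (rows, grouped by compartment) in the 10 libraries (columns, VSG before SPF, an asterisk marking Gata4 above 20 CPM), coloured by log2(CPM + 0.1) minus the gene's mean over libraries, with the colour scale ending at -2 and 2. Pdk4, Creb3l3 and Cyp4a10 are high in the 3 marked libraries, and Cyp4a10 also in VSG 3. Slc25a20 and Acads are low in the marked libraries, and Slc25a20 also in SPF 1.

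Among the mitochondrial members, 8 of 17 had a fold change above 0 and 9 below it over the 10 libraries, with a median of -0.00 and a range from -0.38 to 0.41. In the 7 libraries 16 of 17 were above 0, with a median of 0.22 and a range from -0.04 to 0.73. Those with an unadjusted p under 0.05 were Cpt2, Slc25a20 and Acadl, and the same 3 genes had no overlap between the groups.

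The carnitine shuttle brings long-chain acyl groups across the inner membrane. Slc25a20, the carnitine-acylcarnitine carrier of that membrane, had 167, 67.4, 199, 159 and 154 CPM in VSG 1 to 5, against 91.1, 98.2, 143, 104 and 126 CPM in SPF 1 to 5. VSG 2 was the lowest of all 10 libraries and the other 4 VSG libraries were the highest 4. Its log2 fold change was 0.41 ± 0.25 (SE) over the 10 libraries and 0.50 ± 0.19 over the 7 (95% interval 0.07 to 0.93, edgeR adjusted p = 0.688), where it averaged 169.7 ± 20.2 CPM in VSG and 119.9 ± 26.3 CPM in SPF mice (SD, n = 4 and 3). Cpt2, which returns the acyl group to CoA inside the mitochondrion, had 139, 118, 139.7, 151 and 133 CPM in VSG 1 to 5, against 90.2, 133, 133, 150.3 and 102 CPM in SPF 1 to 5. In the 7 libraries the lowest VSG value lay just above the highest SPF value, and the log2 fold change was 0.38 ± 0.16 (interval 0.01 to 0.75, edgeR adjusted p = 0.705), against 0.16 ± 0.15 in all 10.

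Cpt1a, the liver-type enzyme that makes long-chain acylcarnitines and sets the rate of entry, had 251, 146, 275, 259 and 269 CPM in VSG 1 to 5, against 255, 209, 186, 262 and 215 CPM in SPF 1 to 5. The groups overlapped in both sets of libraries, and the log2 fold change was 0.09 ± 0.19 in the 10 and 0.27 ± 0.16 in the 7 (edgeR adjusted p = 0.985 and 0.756). Crat, carnitine acetyltransferase, which buffers short acyl groups, had 76.7, 125, 83.9, 111 and 112 CPM in VSG 1 to 5, against 66.5, 136, 98.4, 154 and 71.5 CPM in SPF 1 to 5. Its 3 highest libraries were the 3 with high Gata4, and its log2 fold change was -0.05 ± 0.25 in the 10 libraries and 0.28 ± 0.20 in the 7.

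The acyl-CoA dehydrogenases open each turn of the cycle. Acadl, the long-chain member of the family, had 159, 109.8, 362, 169.8 and 189 CPM in VSG 1 to 5, against 110.1, 202, 144, 269 and 145 CPM in SPF 1 to 5. VSG 3 stood above all others, and in the 7 libraries the groups did not overlap. The log2 fold change there was 0.73 ± 0.30 (interval 0.03 to 1.42, edgeR adjusted p = 0.705), and it was 0.37 without VSG 3; in all 10 libraries it was 0.18 ± 0.33. Acadm, the medium-chain member and a long-known PPARA target, had 148, 141, 151, 164 and 161 CPM in VSG 1 to 5, against 132, 168, 168, 184 and 126 CPM in SPF 1 to 5. Its groups overlapped, with log2 fold changes of -0.02 ± 0.13 in the 10 libraries (interval -0.31 to 0.27) and 0.14 ± 0.15 in the 7. Acadvl, for very long chains, had log2 fold changes of 0.07 and 0.35 and Acads, for short chains, of 0.13 and 0.11, in the 10 and the 7 libraries in that order.

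Hadha, the alpha subunit of the trifunctional protein, which hydrates and oxidises long-chain intermediates, had 374, 308, 511, 382 and 381 CPM in VSG 1 to 5, against 279, 404, 376, 436 and 296 CPM in SPF 1 to 5. In the 7 libraries only SPF 3 reached above the lowest VSG library, and the log2 fold change was 0.38 ± 0.19 (interval -0.05 to 0.81, edgeR adjusted p = 0.745), against 0.13 ± 0.18 in all 10. Acaa2, the mitochondrial thiolase, had 205, 189.8, 222, 220.0 and 213 CPM in VSG 1 to 5, against 164, 257, 281, 502 and 166 CPM in SPF 1 to 5. SPF 4 alone was far above the rest, and the log2 fold change of -0.38 ± 0.28 in the 10 libraries was -0.04 without it and 0.08 ± 0.21 in the 7. The remaining mitochondrial members (Hadhb, Hadh, Echs1, Decr1, Etfa, Etfb and Etfdh, which cover the other trifunctional subunit, short-chain dehydrogenation and hydration, the reduction of unsaturated intermediates and the transfer of electrons to the respiratory chain) had log2 fold changes between -0.12 and 0.00 in the 10 libraries and between -0.04 and 0.25 in the 7. Hadhb and Etfb are uncertain as single genes, since 62.4% and 67.3% of the 50-base stretches of their transcripts also occur in another annotated gene.

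Peroxisomal members lay further to the VSG side than mitochondrial ones in the 7 libraries, but the difference between the compartments was not tested. In the 10 libraries 6 of 7 had a fold change above 0, with a median of 0.15. Restricted to the 7 libraries, all 7 were above 0, with a median of 0.59 and a range from 0.43 to 0.72. An unadjusted p under 0.05 was found for Pex11a, Hsd17b4, Crot and Abcd3, and these 4 genes and Ehhadh had no overlap between the groups.

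Pex11a, a membrane protein by which peroxisomes divide and a marker of PPARA activation, had 43.6, 56.6, 58.3, 46.5 and 49.2 CPM in VSG 1 to 5, against 29.6, 48.4, 35.1, 70.6 and 33.8 CPM in SPF 1 to 5. Within the 7 it averaged 49.4 ± 6.35 CPM in VSG and 32.8 ± 2.90 CPM in SPF mice (SD, n = 4 and 3), with a log2 fold change of 0.59 ± 0.15 (interval 0.26 to 0.93, edgeR adjusted p = 0.633). SPF 2 and SPF 4, both with high Gata4, reached into or above the VSG range, and over the 10 libraries the fold change was 0.23 ± 0.22. Abcd3, a transporter of fatty acyl groups in the peroxisomal membrane, had 349.8, 267, 475, 359.5 and 309.8 CPM in VSG 1 to 5, against 264, 409, 274, 368 and 275 CPM in SPF 1 to 5. Its 3 low-Gata4 SPF libraries lay close together below every low-Gata4 VSG library, with a log2 fold change of 0.46 ± 0.18 in the 7 (interval 0.05 to 0.88, edgeR adjusted p = 0.697) and 0.15 ± 0.19 in the 10.

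Hsd17b4 and Ehhadh are the multifunctional enzymes that carry out the middle steps of the peroxisomal cycle, Hsd17b4 mainly on branched and very long chains and Ehhadh on dicarboxylic acids. Hsd17b4 had 187, 231, 341, 249 and 259 CPM in VSG 1 to 5, against 146, 373, 177, 289 and 149.6 CPM in SPF 1 to 5. Only the 2 high-Gata4 SPF libraries exceeded any VSG library, and the log2 fold change was 0.72 ± 0.21 in the 7 libraries (interval 0.23 to 1.21, edgeR adjusted p = 0.633) and 0.16 ± 0.28 in the 10. Ehhadh had 71.0, 122, 158, 88.0 and 86.6 CPM in VSG 1 to 5, against 70.7, 147, 68.5, 201 and 63.9 CPM in SPF 1 to 5. The groups of the 7 libraries were apart by only 71.0 CPM in VSG 1 and 70.7 CPM in SPF 1, and the log2 fold change was 0.58 ± 0.26 (interval -0.02 to 1.18, edgeR adjusted p = 0.718), or 0.27 without VSG 3. Over the 10 libraries it was -0.07 ± 0.35.

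Crot, which makes medium-chain carnitine esters for export from the peroxisome, had 99.2, 140.4, 134, 151 and 155 CPM in VSG 1 to 5, against 94.4, 214, 99.1, 199.7 and 63.8 CPM in SPF 1 to 5. VSG 1 and SPF 3 were almost level, and the log2 fold change was 0.66 ± 0.22 in the 7 libraries (interval 0.16 to 1.15, edgeR adjusted p = 0.633) and 0.02 ± 0.31 in the 10. Acaa1a and Acaa1b are the peroxisomal thiolases, near copies of each other on chromosome 9, and 34.03% of the 50-base stretches of the Acaa1a transcript and 35.5% of those of Acaa1b occur in another annotated gene. Acaa1b had 58.5, 86.5, 101, 87.7 and 99.98 CPM in VSG 1 to 5, against 42.8, 113, 83.4, 146 and 42.6 CPM in SPF 1 to 5. Its groups overlapped through SPF 3, with a log2 fold change of 0.63 ± 0.29 in the 7 libraries (interval -0.04 to 1.29, edgeR adjusted p = 0.722) and 0.02 ± 0.33 in the 10. Acaa1a had log2 fold changes of 0.43 ± 0.29 in the 7 and 0.15 ± 0.24 in the 10.

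**Figure D3:**
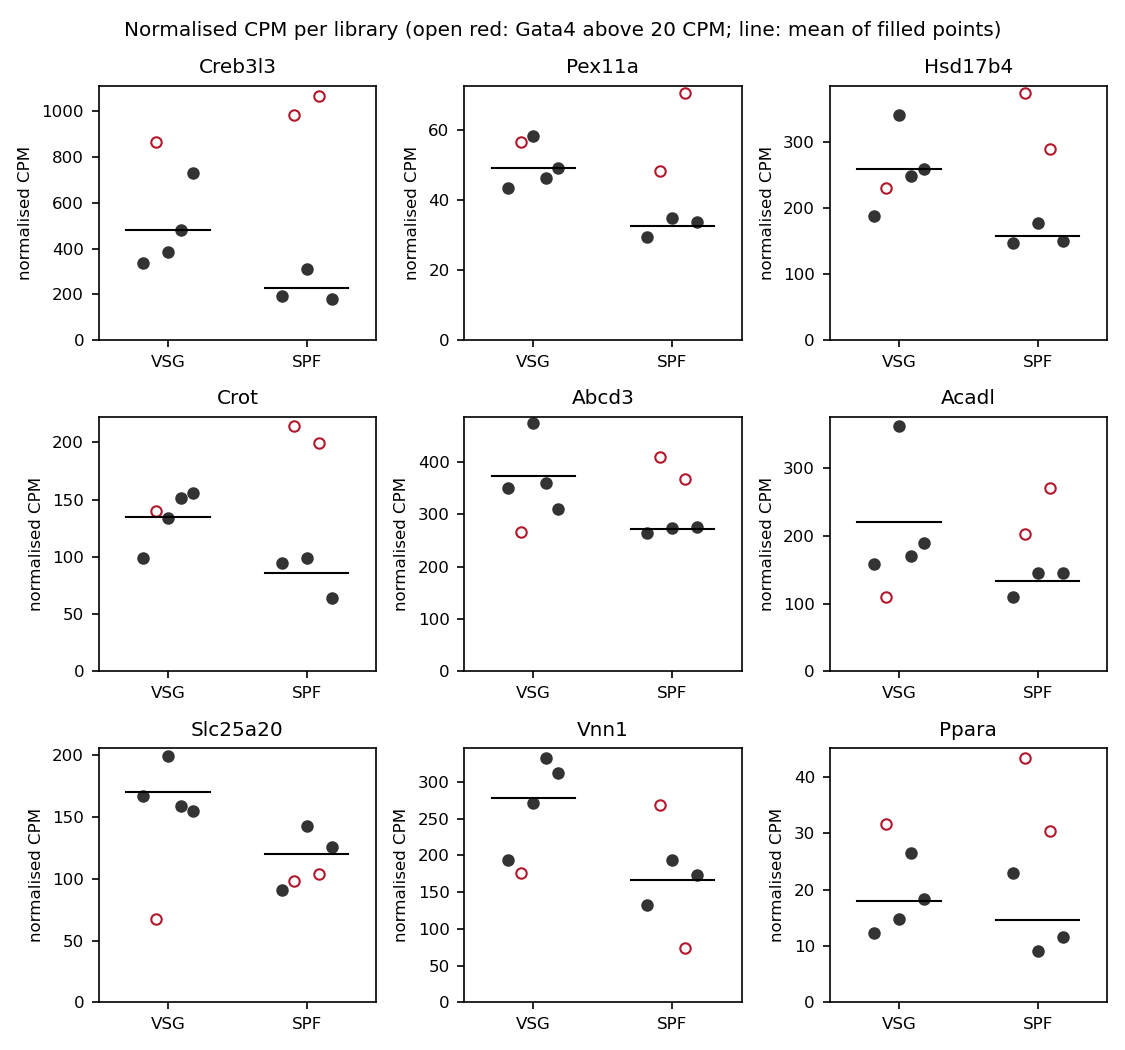
Normalised CPM of selected members in each library (vertical axis from 0), VSG left of SPF, with open red points for libraries with Gata4 above 20 CPM and a line at the mean of the filled points. For Creb3l3 and Pex11a the filled VSG points lie above the filled SPF points, while the open points of SPF 4 stand at 1063 and 70.6 CPM.

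Of the 8 regulators and other PPARA targets tested, 3 had a fold change above 0 and 5 below it in the 10 libraries, with a median of -0.32. In the 7 libraries 7 were above 0 and 1 below, with a median of 0.31. Ppara, the receptor itself, had 12.3, 31.6, 14.9, 26.6 and 18.3 CPM in VSG 1 to 5, against 22.9, 43.4, 9.14, 30.5 and 11.7 CPM in SPF 1 to 5. Its 3 highest libraries were the 3 with high Gata4, and the groups overlapped in the 7, where the log2 fold change was 0.31 ± 0.36 (interval -0.52 to 1.14, edgeR adjusted p = 0.865); in the 10 it was -0.18 ± 0.42.

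Creb3l3 encodes a membrane-bound transcription factor of liver and intestine that works together with PPARA on lipid genes. It had 337, 866, 383, 479 and 729.7 CPM in VSG 1 to 5, against 194, 982, 310.3, 1063 and 182 CPM in SPF 1 to 5. Without the high-Gata4 libraries every VSG value exceeded every SPF value, with means of 482 ± 175 CPM in VSG and 228 ± 71.1 CPM in SPF mice (SD, n = 4 and 3) and a log2 fold change of 1.08 ± 0.32 (interval 0.36 to 1.80, edgeR adjusted p = 0.633). In all 10 the group means were 559 ± 229 CPM in VSG and 546 ± 439 CPM in SPF mice (SD, n = 5 each), and the fold change was 0.03 ± 0.53; the 3 high-Gata4 libraries were the highest of all. Leaving out 1 library of the 7 at a time gave log2 fold changes from 0.80 (without VSG 5) to 1.37 (without SPF 3).

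The promoters of Creb3l3 and Slc25a20 are shown, a choice made after their values were seen. The mean log2 CPM of these genes differed in opposite directions between the high-Gata4 and the other libraries (1.52 and -0.71). For Slc25a20 the sets overlapped, with SPF 1 at 91.1 CPM below SPF 2 at 98.2 CPM and SPF 4 at 104 CPM. Both promoters hold a sequence like the element that PPARA with RXR binds. That element, a direct repeat with 1 base between its hexamers (DR1), was searched as AGGTCANAGGTCA on both strands with at most 2 of its 12 fixed letters different, in the 300 bases from 250 before to 50 after each start (RefSeq, GRCm38.p6). The table held 29 promoters of 26 member genes. A match in at least 1 promoter was found for 4 genes (15.4%), Echs1, Etfa, Slc25a20 and Creb3l3. Of all 32851 promoters, each counted singly, 3.86% had a match. The first share is per gene and the second per promoter, so they are not in the same unit. Echs1 and Etfa, which have a match, differed by 0.17 and 0.35 in mean log2 CPM between the high-Gata4 and the other libraries, with overlap. Pdk4, which differs more between those libraries than Creb3l3, has a promoter in the table with no match. The match is in capitals, and in Creb3l3 it contains the hexamer AGGTCA, which by itself occurs in 16.3% of all promoters. The Creb3l3 sequence is chr10:81092542-81092841 on the minus strand, 1 of 2 starts listed, and the promoter of the other start had no match. The Slc25a20 sequence is chr9:108661886-108662185 on the plus strand, and its match lies after the start, while that of Creb3l3 lies before it.
Creb3l3: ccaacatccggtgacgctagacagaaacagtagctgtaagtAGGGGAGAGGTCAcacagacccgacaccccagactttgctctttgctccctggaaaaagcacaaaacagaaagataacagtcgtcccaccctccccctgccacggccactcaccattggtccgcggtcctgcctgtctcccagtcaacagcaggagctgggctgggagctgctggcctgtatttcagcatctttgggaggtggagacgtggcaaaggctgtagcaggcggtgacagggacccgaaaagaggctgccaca
Slc25a20: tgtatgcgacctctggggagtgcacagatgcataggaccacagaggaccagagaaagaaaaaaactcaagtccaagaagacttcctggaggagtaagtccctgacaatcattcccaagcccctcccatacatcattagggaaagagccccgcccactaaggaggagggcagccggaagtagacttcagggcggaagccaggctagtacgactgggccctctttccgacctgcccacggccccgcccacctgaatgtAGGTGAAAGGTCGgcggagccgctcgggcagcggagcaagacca
A match of letters is a description of these windows and shows no binding.

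Vnn1, a pantetheinase that responds strongly to PPARA in the liver, had 193, 176, 271, 333 and 312 CPM in VSG 1 to 5, against 132, 269, 194, 74.4 and 173 CPM in SPF 1 to 5. VSG 3, 4 and 5 were the highest 3 libraries and SPF 4 the lowest. Its log2 fold change was 0.61 ± 0.31 in the 10 libraries (interval -0.08 to 1.30, edgeR adjusted p = 0.977) and 0.74 ± 0.23 in the 7 (interval 0.22 to 1.26, edgeR adjusted p = 0.633). It was thus the member with the lowest unadjusted p over the 10 libraries, at 0.0767.

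Pdk4, the kinase that shuts off pyruvate oxidation when fat is burnt, had 4.88, 37.8, 9.05, 4.89 and 6.72 CPM in VSG 1 to 5, against 2.83, 42.1, 1.77, 53.3 and 13.3 CPM in SPF 1 to 5. It was high in the 3 high-Gata4 libraries alone, and its groups overlapped in both sets, with log2 fold changes of -0.83 ± 0.91 in the 10 libraries and 0.09 ± 0.63 in the 7 (edgeR adjusted p = 0.977 and 0.981). Angptl4, a secreted inhibitor of lipoprotein lipase, had 31.6, 106, 37.8, 124 and 80.1 CPM in VSG 1 to 5, against 47.7, 33.7, 104, 76.7 and 13.9 CPM in SPF 1 to 5. High and low values stood in both groups and in both sets of libraries, and the log2 fold changes were 0.46 ± 0.52 in the 10 and 0.32 ± 0.66 in the 7 (interval -1.19 to 1.83).

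Cyp4a10 and Cyp4a14 encode fatty acid omega-hydroxylases, the classic strongly induced PPARA targets of mouse liver and kidney. Cyp4a10 had 0.391, 6.75, 12.8, 0.573 and 0.640 CPM in VSG 1 to 5, against 0.130, 13.7, 0.473, 75.0 and 0.156 CPM in SPF 1 to 5. Its 4 highest libraries were the 3 with high Gata4 and VSG 3, and the other 6 stood under 1 CPM. The log2 fold change was -2.10 ± 1.60 in the 10 libraries (interval -5.61 to 1.41) and 0.24 without SPF 4. In the 7 it was 3.82 ± 1.45 (interval 0.53 to 7.12, edgeR adjusted p = 0.688) and 1.11 without VSG 3. Of its 50-base stretches 30.5% occur in another gene, mostly Cyp4a32, so its reads are uncertain as those of a single gene. Cyp4a14 was close to undetected, with 0, 0, 0, 0 and 1 read in VSG 1 to 5 and 0, 1, 0, 1 and 0 reads in SPF 1 to 5, and it did not pass the filter on low counts.

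Acot1 and Acot2 are the cytosolic and the mitochondrial acyl-CoA thioesterase of one gene cluster on chromosome 12. They share a run of 273 identical coding bases, which is the reason for reading them together. Shown are 120 bases of each reading frame that begin inside this run and extend past its end. They are coding bases 1100 to 1219 of Acot1 and 1223 to 1342 of Acot2 (GENCODE M21, on build GRCm38). The 5 differing bases, all past the end of the run, are in capitals.
Acot1: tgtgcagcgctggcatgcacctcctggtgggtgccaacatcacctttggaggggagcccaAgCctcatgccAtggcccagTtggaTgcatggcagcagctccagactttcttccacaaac
Acot2: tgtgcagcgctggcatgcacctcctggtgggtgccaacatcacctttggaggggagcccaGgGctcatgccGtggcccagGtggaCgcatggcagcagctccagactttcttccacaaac
Summed, they had 19.5, 10.8, 25.2, 13.2 and 13.1 CPM in VSG 1 to 5, against 12.7, 25.5, 16.6, 76.2 and 17.8 CPM in SPF 1 to 5. SPF 4 stood far above the next library, and the log2 fold change of -0.87 ± 0.47 in the 10 libraries (edgeR adjusted p = 0.977) was -0.14 without it and 0.17 ± 0.27 in the 7. Acsl1, which activates long-chain fatty acids to CoA esters, had log2 fold changes of -0.45 ± 0.28 in the 10 libraries and -0.08 ± 0.17 in the 7, where it and Echs1 were the only members below 0.

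Several members differed between the libraries with high Gata4 and the others, across both surgeries. The 3 high-Gata4 libraries are samples picked from the data and no group of the study, so these values are a description without a test. In 6 of the 32 members, Crat, Hadh, Ppara, Creb3l3, Pdk4 and Acsl1, all 3 lay above all of the other 7, and in 1, Acads, all 3 lay below; among all genes 6.08% lay above and 5.65% below. The difference in mean log2 CPM, high minus low Gata4, was 4.80 for Cyp4a10, 3.07 for Pdk4, 1.52 for Creb3l3 and 1.16 for Ppara. It was -0.71 for Slc25a20 and -0.70 for Acads, with Acads at 64.9 to 91.7 CPM in the 3 libraries and 96.7 to 182 CPM in the 7. Cpt1a and Vnn1, at -0.28 and -0.52, were also on the low side. The peroxisomal members were all on the high side, from 0.08 (Abcd3) to 0.89 (Ehhadh), but none was separated between the 3 and the 7. The enterocyte markers summed to 45867 to 78606 CPM in the 3 libraries and 18705 to 51973 CPM in the 7, and the part of this in the differences was not tested.

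**Figure D4:**
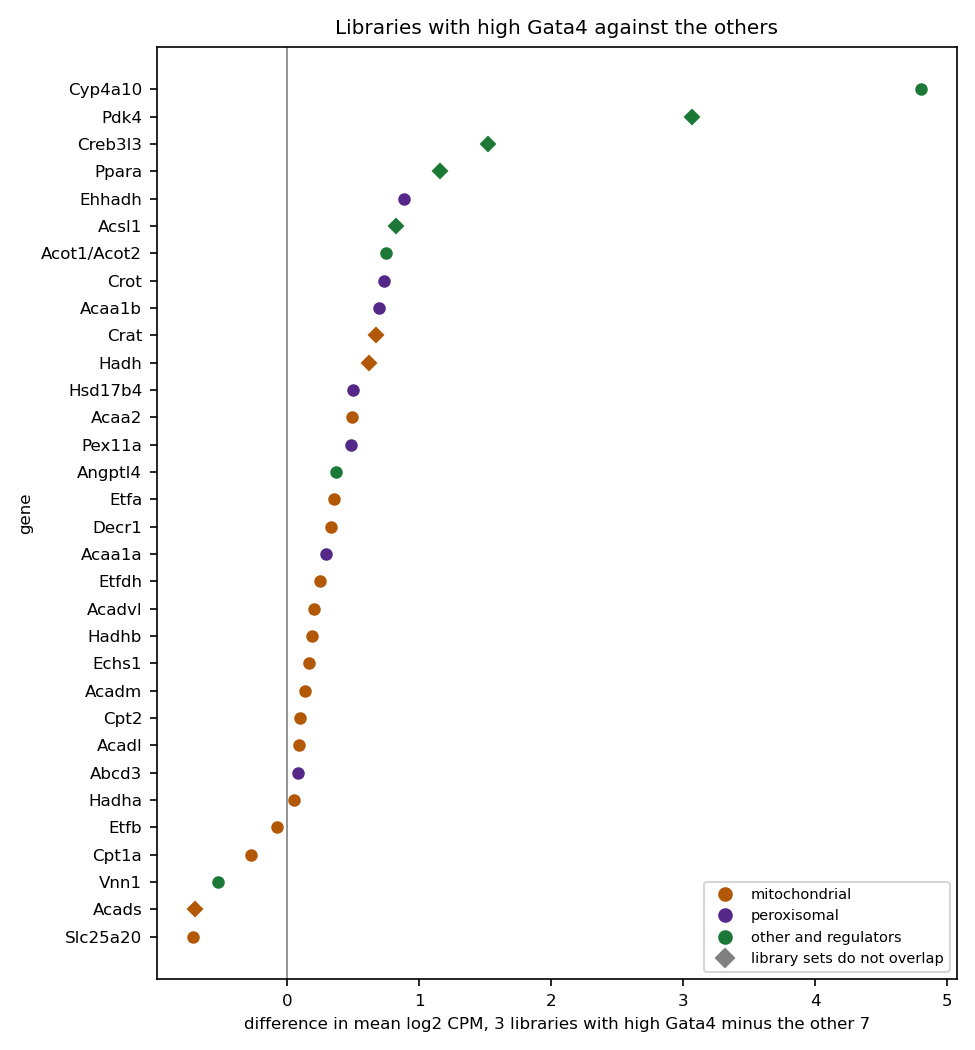
Difference in mean log2 CPM between the 3 libraries with high Gata4 and the other 7 (horizontal axis) for each member, coloured by compartment, with diamonds where the library sets do not overlap. Cyp4a10 (4.80), Pdk4 (3.07) and Creb3l3 (1.52) lie furthest to the right and Slc25a20 (-0.71) and Acads (-0.70) furthest to the left.

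Over the 10 libraries, the genes whose log2 CPM followed that of Ppara most closely were Zswim5 (Pearson r = 0.976), Ganc (0.968), Hnf4g (0.968), 4933426M11Rik (0.966) and Cd300lg (0.948), among 14137 genes averaging 1 CPM or more. Among the members r with Ppara was highest for Crot (0.77), Creb3l3 (0.71) and Pdk4 (0.68) and lowest for Acads (-0.70) and Slc25a20 (-0.61). These values describe 10 libraries of which 3 carry upper small intestine markers, and have no test.

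Other genes of the same pathways were counted from wider lists. Of 29 further peroxisomal genes tested, 14 had a fold change above 0 and 15 below in the 10 libraries (median -0.03), and 22 above and 7 below in the 7 (median 0.14), with 3 higher and 0 lower at an unadjusted p under 0.05. Acox2, the oxidase for branched chains and bile acid intermediates, had 13.2, 18.4, 31.7, 34 and 32.0 CPM in VSG 1 to 5, against 11.1, 27.7, 13.8, 11.6 and 4.81 CPM in SPF 1 to 5. VSG 1 lay within the SPF range and VSG 3, 4 and 5 above it, with log2 fold changes of 1.49 ± 0.43 in the 7 and 0.90 ± 0.41 in the 10 (edgeR adjusted p = 0.633 and 0.977). Acox3, a further branched-chain oxidase, had 0.17 ± 0.11 in the 10.

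The other mitochondrial genes gave no such shift. Of 25 tested, 5 had a fold change above 0 and 20 below in the 10 libraries (median -0.17), and 10 above and 15 below in the 7 (median -0.07), with 1 higher and 0 lower at an unadjusted p under 0.05. The lowest p values were those of Acad11, an acyl-CoA dehydrogenase (0.55 ± 0.20), and Slc22a5, the plasma membrane carnitine carrier (0.36 ± 0.16), in the 7 libraries, and of Hibch, of valine breakdown (-0.37 ± 0.21), and Nnt, the proton-driven transhydrogenase (-0.27 ± 0.17), in the 10. All 4 values are log2 fold changes, and the edgeR adjusted p of each was at least 0.685.

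Ketone body genes were 3 above and 4 below 0 in both sets of libraries, with medians of -0.12 in the 10 and -0.01 in the 7, where 2 were higher and 1 lower at an unadjusted p under 0.05. Bdh2 had a log2 fold change of 1.60 ± 0.36 in the 7, at under 2 CPM in every library, and Acat1, which joins and splits acetoacetyl-CoA, and Bdh1, which interconverts the ketone bodies, had -0.38 ± 0.30 and -0.16 ± 0.22 in the 10.

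Among further PPARA targets, 11 of 27 tested had a fold change above 0 and 16 below in the 10 libraries (median -0.08), and 20 of 26 above and 6 below in the 7 (median 0.40), with 7 higher at an unadjusted p under 0.05. Slc27a2, a very-long-chain acyl-CoA synthetase, had 29.5, 78.7, 38.4, 30.6 and 37.8 CPM in VSG 1 to 5, against 35.0, 164, 31.0, 266 and 32.0 CPM in SPF 1 to 5. It was higher in each high-Gata4 library than in any other, with log2 fold changes of -1.30 ± 0.63 in the 10 and 0.06 ± 0.15 in the 7. Txnip, an inhibitor of thioredoxin and of glucose uptake, had 0.53 ± 0.24 in the 10, and Aldh3a2, the fatty aldehyde dehydrogenase, 0.62 ± 0.20 in the 7. Fabp2, the intestinal fatty acid binding protein, had 1.30 ± 0.45 in the 7 and is also 1 of the 10 enterocyte markers. Of 18 receptors and cofactors tested, 11 were above 0 in the 10 libraries (median 0.07) and 13 in the 7 (median 0.15), with 0 at p under 0.05 in the 7. Ppard, the related receptor, had 0.42 ± 0.20 in the 10 libraries and 0.29 ± 0.18 in the 7. Prkaa2 and Prkaa1, the catalytic subunits of AMP-activated kinase, gave 0.50 ± 0.31 and 0.35 ± 0.22 in the 10 libraries, Prkaa2 first, and in the 7 Prkaa2 gave 0.41 ± 0.28 and Prkaa1 0.27 ± 0.17. No gene of these lists was called by edgeR in either set.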

How the data were processed

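RNA of terminal ileum was sequenced as single-end reads of 50 bases from TruSeq RNA libraries, per the labels' protocols. Each library has a deposited table of estimated counts for Ensembl genes with symbols, 61.3% of them whole within 1e-06, in files named after RPKM. The authors also deposited log2 values per gene, which differ from the log2 of those counts by a constant per library and gene (largest SD 2.38e-07 over 12672 genes), with the SPF median at 0 in 100% of genes; these were not tested. The submitters' processing notes name DESeq and build mm9. The aligner and the counting of shared or antisense reads are not given in the sources used here. Of 36401 genes, 10315 had no count, and 0 rows lacked a symbol.

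Estimated counts were rounded, Acot1 and Acot2 were summed, and edgeR 4.0.16 in R 4.3.3 was run with filterByExpr, TMM factors, quasi-likelihood F tests of surgery without further terms, and Benjamini-Hochberg adjustment over all genes (threshold 0.05), separately for 10 and 7 libraries. The CPM printed per library use the 10-library factors, log2 CPM use a prior count of 2, SEs are the fold change over the root of F, and intervals are at 95%. The procedure was tested on simulated data, with results not reported here. How often changes of the size seen among the members would be called is thus not given. Depth was 15364651 to 34058181 per library. Libraries correlated at 0.975 to 0.991 in log2 estimated counts, not normalised, over all genes including those with no count. None was a duplicate. The labels do not say outright that each library is a separate animal, so p-values measure the spread between these samples. Alternatives were other scalings and filters, DESeq2 1.42.0, limma-voom (limma 3.58.1), a replicate block, leaving out each library, Acot1 and Acot2 apart, and marker covariates. The members, gene lists, naming rule and the Gata4 limit of 20 CPM were chosen with earlier results of these data known. Values per library are given for a set of well-known members, for members with p under 0.05 in either fit and for the 2 with the lowest p per compartment and fit; of each pathway list the 2 genes with the lowest p per fit are named, and some results are not reported here. Promoters are from RefSeq (GRCm38.p6), coding sequences from GENCODE M21 on GRCm38, and no coordinates were taken from the mm9 files.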

Additional observations from a re-analysis of the deposited data

Results flagged for a closer look

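In 4 of the 42 sets of 5 libraries examined, 1 library stood apart from the other 4 by more than Dixon's limit of 0.71 for the gap over the range. Chance alone gives about 1 in 20. Cpt1a was lowest in VSG 2, at 146 CPM, against 251 to 275 CPM in the other VSG libraries. Pdk4 was highest in VSG 2, at 37.8 CPM, against 4.88 to 9.05 CPM in the others of its group. VSG 2 is the VSG library with high Gata4. Cyp4a10 stood at 75.0 CPM in SPF 4, against 0.130 to 13.7 CPM in the other SPF libraries, and Acot1 with Acot2 at 76.2 CPM in SPF 4, against 12.7 to 25.5 CPM. SPF 4 has the highest Gata4 of all and, with SPF 2, is 1 of 2 SPF libraries in which it is high.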

How the results depend on the processing

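No member was called by edgeR, DESeq2 or limma-voom under any setting run, in 10 or in 7 libraries. DESeq2 called 11 genes in the 10 libraries and 83 in the 7, and in the 7 no filter gave 4 and limma-voom 2, against 0 in the main fits. In the 10 libraries 2 members had an unadjusted p under 0.05, higher, with the upper small intestine markers as covariate. With the enterocyte covariate, chosen after seeing the data, 10 members were above 0 in the 10 libraries and 18 in the 7, where 0 had p under 0.05 and the medians were -0.078 (mitochondrial) and 0.10 (peroxisomal). That covariate itself differs between the groups.

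Leaving out 1 library at a time, members above 0 in the 10 libraries numbered 12 to 27 (27 without SPF 4), and those with p under 0.05 numbered 0 to 2. In the 7, genes called numbered 0 to 2, members with p under 0.05 numbered 5 to 19, and the mitochondrial median ran from 0.14 to 0.48. Members above all low-Gata4 libraries numbered 6 to 10 and below them 1 to 2. Log2 fold changes that turned sign in the 10 ran from -0.17 to 0.14 (Crat), -0.15 to 0.41 (Acadl), -0.083 to 0.057 (Acadm), -0.26 to 0.28 (Ehhadh), -0.14 to 0.31 (Acaa1b), -0.15 to 0.25 (Crot), -0.38 to 0.16 (Ppara), -0.18 to 0.45 (Creb3l3) and -3.08 to 0.24 (Cyp4a10). In the 7 they ran from -0.059 to 0.39 (Acaa2), -0.34 to 1.46 (Pdk4), -0.15 to 1.16 (Angptl4) and -0.051 to 0.29 (Acot1 with Acot2).

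Other settings also turned signs of log2 fold changes, none of them called. In the 10 libraries these were, with library totals, Acaa1b -0.029, Crot -0.032 and Creb3l3 -0.0076, with the upper quartile Acaa1b -0.026 and Crot -0.023, and with limma-voom Ehhadh 0.029, Ppara 0.0013 and Cyp4a10 0.18. With the upper small intestine covariate they were Crat 0.19, Acadm 0.037, Ehhadh 0.34, Ppara 0.11 and Cyp4a10 2.47, and with the enterocyte covariate Hsd17b4 -0.012, Acaa1b -0.20, Crot -0.17 and Creb3l3 -0.20. In the 7 they were Pdk4 -0.10 with library totals, Acaa2 -0.00068 and Pdk4 -0.013 with the upper quartile, and with the enterocyte covariate Crat -0.17, Acadm -0.078, Acaa2 -0.23, Acaa1b -0.21, Crot -0.0023, Ppara -0.23 and Angptl4 -1.44. The causes were not tested.

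The replicate numbers were not shown to pair libraries: correlations of same-numbered deviations were 0.035, 0.182, -0.048, -0.319 and -0.065, and no library correlated best with its own number. With the replicate block 0 genes were called, and in the 10 libraries Crat was 0.0039, Ehhadh 0.040 and Cyp4a10 0.28. Cyp4a14 had 0 to 1 reads per library, in libraries of 15364651 to 34058181 estimated reads, which is too few to compare the groups.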
